A study of Homo sapiens with 20 samples.

Results

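Collagen hydroxylase and lysyl oxidase genes encode the enzymes that modify collagen chains and cross-link the finished fibre. The 10 genes examined here were P4HA1, P4HA2 and P4HA3 (catalytic subunits of collagen prolyl 4-hydroxylase), PLOD1, PLOD2 and PLOD3 (lysyl hydroxylases), and LOX, LOXL1, LOXL2 and LOXL4 (lysyl oxidase and its relatives), out of 20136 protein-coding genes annotated on the primary chromosomes. They were chosen from these enzyme families with earlier results of these data known, so counts set beside the share of all genes are descriptions only. LOXL3, the remaining lysyl oxidase relative, was counted with other collagen genes further on. Every HIF1A peak whose centre fell between 10 kb before the start and 10 kb past the end of a gene's record was assigned to that gene. HIF1A is the oxygen-regulated subunit of the hypoxia-inducible factor, and ChIP-seq recovers the DNA it is bound to with an antibody and counts the sequenced fragments, or tags.

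Prolyl 4-hydroxylase acts in the endoplasmic reticulum, where hydroxylation of proline keeps the collagen triple helix stable at body temperature. Lysyl hydroxylases modify lysines that later carry sugars or form cross-links, and the secreted lysyl oxidases oxidise lysine and hydroxylysine side chains so that neighbouring molecules become joined. Several of these genes are classic targets of hypoxia-inducible factors, and stiff, cross-linked collagen is a known feature of many solid tumours. HIF1A with its partner binds DNA at the hypoxia response element, whose core reads RCGTG (ACGTG or GCGTG).

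Binding was measured in 4 human cancer lines, HCT116 and RKO (colorectal carcinoma) and A549 and H460 (lung cancer). Cells were kept in ordinary culture atmosphere (normoxia) or in 1% oxygen for 24 h (hypoxia), with no other treatment or engineered allele. Each line and condition had 2 ChIP libraries and each line had 1 input library of unprecipitated DNA, 20 libraries in all. The peaks were called on the merged pair, so each line and condition gave 1 value per peak and no spread between replicates. The intervals below therefore cover counting error only, and a line was the smallest unit that could be compared. Culture medium differed between lines other than RKO and A549, and sonication between lines other than HCT116 and RKO, and where they differed they cannot be told apart from the line. Tags were summed over whole cultures, so a larger share of bound cells and more binding per cell cannot be told apart.

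Levels are given as tags in the peak per 10 M tags of the merged library, which removes differences in depth. Differences between lines in the efficiency of the immunoprecipitation remain in them. The merged libraries held 41.2 to 81.5 M tags, and the lists held 3877 to 9171 peaks in hypoxia and 287 to 2092 in normoxia. The fold over input that a peak had to pass was set separately for each line, at 6 to 14, which the authors did to control for that efficiency. The descriptions of the RKO and A549 input libraries each named the other line. The source name of every input library was HCT116. The titles were followed here. A wrong input would touch the input tags and folds, the levels needed for a call and, if the peak calling used it too, the calls themselves. No expression values were used, so the identity of the lines was not checked.

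The DNA under the peaks just before the gene starts, and under the PLOD1 peak found in every line, is shown first, because it places the hypoxia response element cores that the later values refer to. All coordinates are GRCh37 and the sequences were read from that genome. Capitals mark every RCGTG core, so a core on the opposite strand reads CACGT or CACGC. For the peaks at the starts of P4HA1, P4HA2, PLOD2 and PLOD3, a stretch of 29 bases around each core or group of cores is given.
P4HA1, chr10:74856694-74856722, plus strand: gcagccctcgctACGTGagctcgatcaca
P4HA2, A549 peak, chr5:131563782-131563810, minus strand: cgggcgcggagtACGTGcggtgggctgcg
P4HA2, RKO peak, chr5:131563607-131563635, minus strand: gGCGTGtggaGCGTGaggtggggACGTGg
PLOD2, chr3:145879162-145879190, plus strand: cggctACGTGtggaggctCACGCagcgct
PLOD2, chr3:145879101-145879129, minus strand: caaacagtccagACGTGgggcccaggagg
PLOD3, chr7:100861338-100861366, minus strand: ctttgactcattACGTGgcgtttccttgg
PLOD3, chr7:100861363-100861391, minus strand: ttgtacttctgcGCGTGcgccacagcttt

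The peak upstream of PLOD1 lay outside annotated untranslated regions and is given whole, as called in A549 in hypoxia. Its first core is the palindrome CACGTG, which matches RCGTG on both strands, and a further core follows after 3 bases.
PLOD1, chr1:11989967-11990107, plus strand: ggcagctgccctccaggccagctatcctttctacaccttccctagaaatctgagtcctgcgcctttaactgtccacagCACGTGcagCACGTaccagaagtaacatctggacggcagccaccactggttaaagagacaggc

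In hypoxia, 7 of the 10 genes had a HIF1A peak in at least 1 line, against 51.8% of all protein-coding genes. P4HA1, P4HA2 and PLOD1 had one in all 4 lines, LOXL2 in 3 lines, PLOD3 in 2, and PLOD2 and LOX in A549 alone. The share of all protein-coding genes with a peak in every hypoxia list was 3.26%. P4HA3, LOXL1 and LOXL4 had no hypoxia peak in any line.

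By line, hypoxia peaks were called at 7 of the 10 genes in A549 (21.5% of all protein-coding genes), at 5 in HCT116 (19.9%), 4 in RKO (28.3%) and 3 in H460 (18.4%). A549 held 15 of the 30 hypoxia peaks at these genes, and the other lines held 5 each. Per 100 kb of gene window this came to 1.78 peaks in A549 against 0.305 over all protein-coding windows, and to 0.593 in each of HCT116, RKO and H460 against 0.27, 0.447 and 0.254. The windows of 6 of the 10 genes were longer than the median protein-coding window of 47.2 kb. A longer window can hold more peaks, and the density is the measure that allows for it.

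In normoxia only A549 had peaks at these genes, at P4HA1 and P4HA3 (2 of 10 genes, against 2.77% of all protein-coding genes). HCT116, RKO and H460 had none, where 1.3%, 6.94% and 3.81% of all genes had one.

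**Figure D1:**
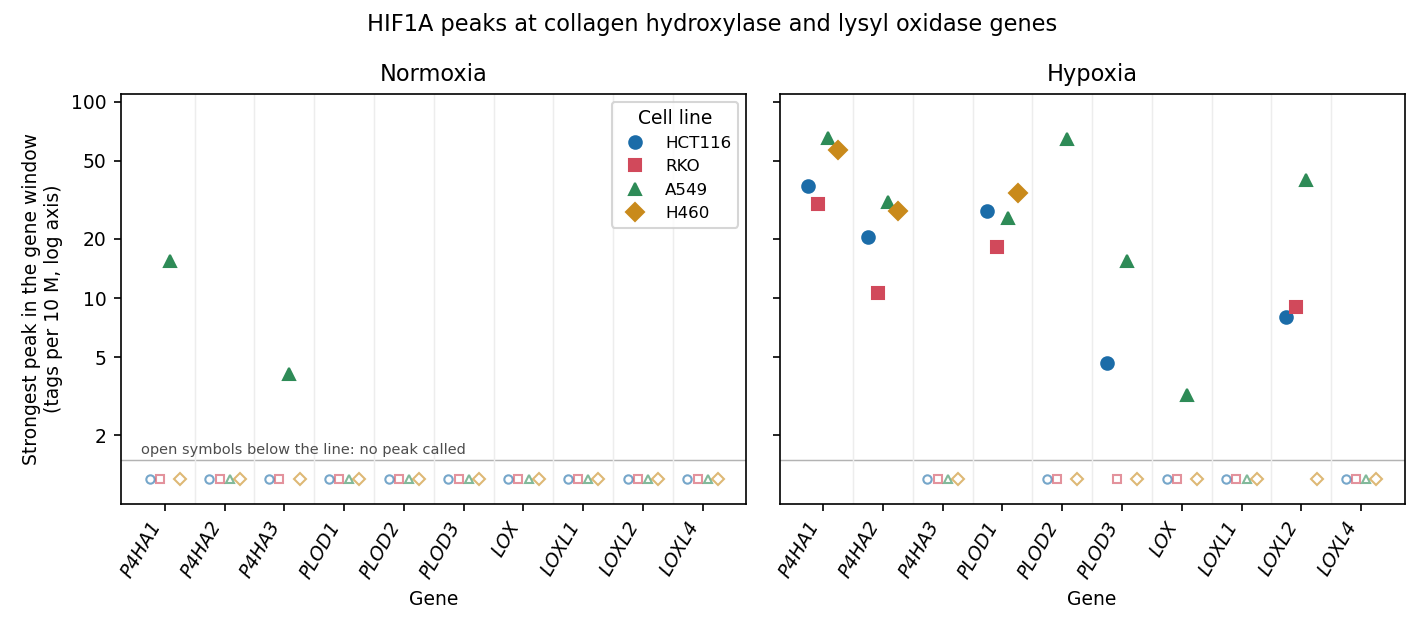
Level of the strongest peak in the window of each gene, in tags per 10 M on a log axis, for normoxia (left) and hypoxia (right), with 1 symbol per cell line. Filled symbols are called peaks and open symbols under the line mark lists with no peak. In hypoxia P4HA1, P4HA2 and PLOD1 carry 4 filled symbols each, and in normoxia A549 alone has filled symbols, at P4HA1 (15.5) and P4HA3 (4.12).

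P4HA1, the main catalytic subunit of prolyl 4-hydroxylase in many cells, had the highest peak of the 10 genes in every line. Its level in hypoxia was 65.5 tags per 10 M in A549 (95% Poisson interval 58.3 to 73.3), 56.4 in H460 (50.0 to 63.4), 37.3 in HCT116 (33.2 to 41.7) and 30 in RKO (26.0 to 34.5). The intervals of A549 and H460 overlapped, as did those of HCT116 and RKO, while both lung lines lay above both colorectal lines on this scale. That order did not hold relative to regions shared by the lines, as given further on. It ranked 26th of 5408 peaks in A549, 53rd of 3877 in H460, 23rd of 3996 in HCT116 and 22nd of 9171 in RKO.

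The P4HA1 peak sat at the gene's start in all 4 lines. Its centre was 59 to 90 bp upstream of the MANE Select start (the transcript that RefSeq and GENCODE jointly chose to represent the gene), in the untranslated region of a transcript that begins further upstream. The centres lay within 31 bp of each other, and 1 core, ACGTG on the strand opposite to the gene, fell 84 bp before the MANE Select start. A549 had a further, weaker peak of 8.16 tags per 10 M (5.77 to 11.2) in an intron 1301 bp past that start, with 2 cores.

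The P4HA1 start was the only place at these genes where a peak was called in both conditions. In A549 it held 305 tags in hypoxia (65.5 tags per 10 M) and 64 in normoxia (15.5 tags per 10 M, 12.0 to 19.8). Hypoxia was 4.22-fold higher (95% interval 3.21 to 5.62), a log2 difference of 2.08, with an adjusted p of 1.23e-31 by the exact binomial test over the 176 peaks called in both A549 lists. Of those 176 peaks, 73.3% had more tags in hypoxia at an adjusted p under 0.05, and their median log2 difference was 1.27. The test compares the merged libraries and not replicated conditions.

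P4HA2, a second catalytic subunit, had a start peak in all 4 lines at lower levels than P4HA1. The levels in hypoxia were 30.7 tags per 10 M in A549 (25.9 to 36.2), 27.9 in H460 (23.4 to 33.0), 20.5 in HCT116 (17.5 to 23.8) and 10.6 in RKO (8.29 to 13.4). RKO lay below the other lines beyond counting error, and each of the remaining neighbours in that order had overlapping intervals. These peaks ranked 159th in A549, 253rd in H460, 76th in HCT116 and 184th in RKO.

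The P4HA2 peaks did not share a summit. Their centres were 55 bp (RKO), 110 bp (H460), 216 bp (A549) and 230 bp (HCT116) upstream of the MANE Select start, a spread of 175 bp. Over the 233 regions called in all 4 lines the median spread was 29 bp, and 2 regions, P4HA2 among them, were as wide as 175 bp. The P4HA1 spread of 31 bp and the PLOD1 spread of 15 bp lay near or below that median.

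The P4HA2 region held 4 cores, all on the strand of the gene. A group of 3 lay 64, 77 and 86 bp before the MANE Select start, under the RKO and H460 peaks, and the fourth lay 250 bp before it, under the A549 and HCT116 peaks. The RKO peak overlapped neither the HCT116 nor the A549 peak. They were joined into 1 region through the H460 peak, which overlapped each of them. The RKO level at this start is therefore that of a separate interval from those of HCT116 and A549. The same stretch is intronic in longer P4HA2 transcripts, because the gene's record begins 67462 bp further upstream.

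P4HA2 also had 4 weaker hypoxia peaks, each in 1 line. A549 had peaks of 3.65 and 3.44 tags per 10 M, both in introns of the longer transcripts and both without a core. H460 had a peak of 6.67 that was 188 bp from the start of SLC22A4, an organic cation transporter gene, and a peak of 3.64 that lay 8944 bp upstream of the P4HA2 record. All 4 lay between 11.3 and 76.4 kb from the MANE Select start.

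P4HA3, the third catalytic subunit, had no hypoxia peak in any line. The nearest hypoxia peak to its start was 87.1 kb away in H460, 140.2 kb in RKO and in A549, and 550.5 kb in HCT116. In normoxia A549 had a peak of 4.12 tags per 10 M (2.40 to 6.60, 17 tags) at chr11:73977971-73978115, in the untranslated region of the MANE transcript 44.6 kb past its start. It ranked 271st of 526 peaks and held no core within 200 bp of sequence at its centre.

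**Figure D2:**
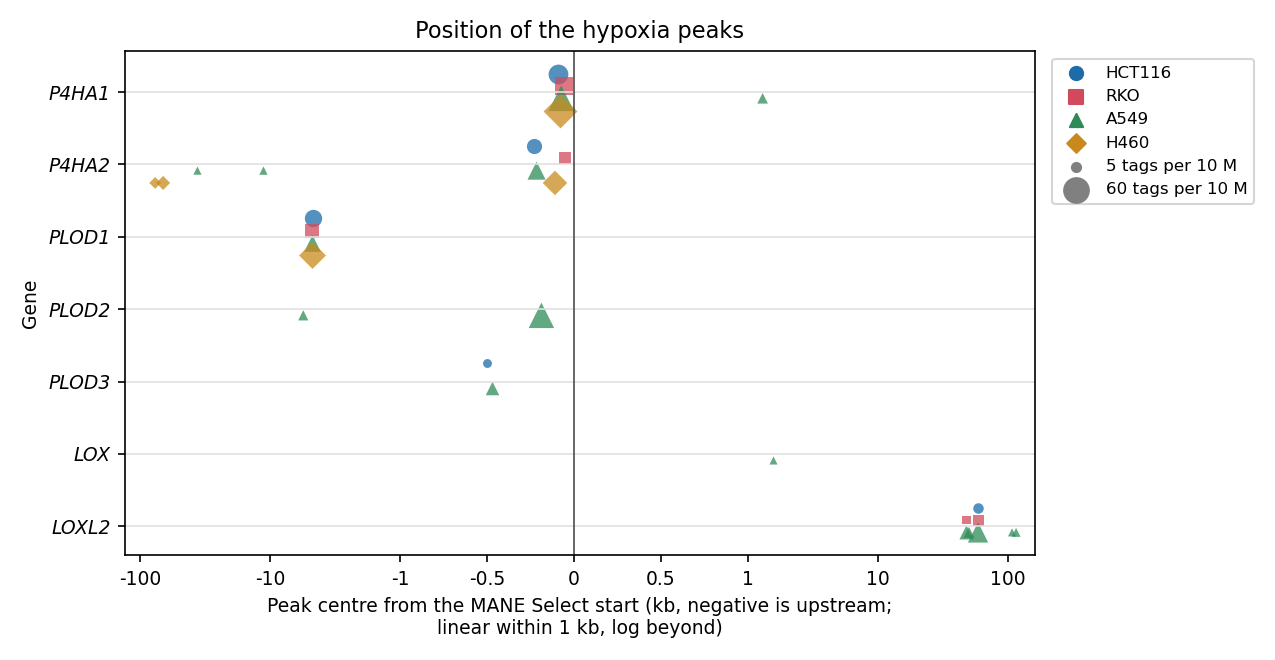
Distance of each hypoxia peak centre from the MANE Select start of its gene, in kb along the gene's strand (linear within 1 kb, log beyond), for the 7 genes with a hypoxia peak. Symbol shape and colour give the cell line and symbol area the level in tags per 10 M. The strongest P4HA1, P4HA2, PLOD2 and PLOD3 peaks lie just before the start, with weaker P4HA2 and PLOD2 peaks further upstream and 1 weaker P4HA1 peak past the start, the PLOD1 peaks of all 4 lines lie over each other upstream, and the LOXL2 peaks lie far inside the gene or past its end.

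PLOD1 encodes a lysyl hydroxylase that modifies lysines of the collagen helix. It carried a peak in all 4 lines that lay outside the gene, 4210 to 4225 bp upstream of the start of its record at chr1:11994262-12035595. The levels in hypoxia were 34.2 tags per 10 M in H460 (29.2 to 39.7), then 27.8 in HCT116 (24.3 to 31.7) and 25.6 in A549 (21.2 to 30.6). RKO was lowest with 18.1 (15.0 to 21.6). Each line's interval overlapped that of the next line in this order, while those of H460 and RKO did not overlap.

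The PLOD1 peak ranked 241st in A549, 179th in H460, 43rd in HCT116 and 64th in RKO. Its rank lay between those of the P4HA1 and P4HA2 start peaks in H460, HCT116 and RKO, and below both in A549. In each line its centre fell 4 to 10 bp from a core. The start of KIAA2013, a neighbouring gene read in the opposite direction, was nearer to it, at 3552 to 3567 bp. The peak's assignment to PLOD1 rests on the 10 kb window.

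PLOD2 encodes the lysyl hydroxylase of the collagen telopeptides, whose products form the stable pyridinoline cross-links. It had hypoxia peaks in A549 alone. The peak at its start, at chr3:145879089-145879229, reached 64.2 tags per 10 M (57.1 to 71.9, 299 tags), close to the 65.5 at P4HA1 in the same line, and ranked 27th of 5408. The intervals of these 2 levels overlapped.

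The centre of the PLOD2 peak lay 188 bp upstream of the MANE Select start, in the untranslated region of another PLOD2 transcript, and the peak held 3 cores. A second A549 peak of 7.3 tags per 10 M (5.06 to 10.2) lay 3031 bp upstream of the gene's record, with 1 core. In the other lines the nearest hypoxia peak to the PLOD2 start was 604.3 kb away (H460), 1084 kb (HCT116) and 1748 kb (RKO). The lowest level called in those lists was 2.63, 2.09 and 1.94 tags per 10 M. A call there also had to pass the fold over input. The input tags at this place in those lines are not known, so the level needed could be higher.

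Of the 27 A549 hypoxia peaks at least as high as that at the PLOD2 start, 18 lay in regions called in all 4 lines and 2, PLOD2 among them, were called in A549 alone. Peaks called in 1 line made up 90.3% of the 19625 hypoxia regions of the series and 11 of the 17 regions at these genes. The other 10 such regions had peaks between 3.22 and 9.45 tags per 10 M.

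PLOD3, a lysyl hydroxylase that also transfers sugars to hydroxylysine, had a hypoxia peak in A549 at 15.5 tags per 10 M (12.1 to 19.5) and in HCT116 at 4.66 (3.30 to 6.40). The level in A549 was 3.33 times that in HCT116 and the intervals did not overlap. The centres lay 475 and 499 bp upstream of the MANE Select start, and 109 and 85 bp from the start of ZNHIT1, which is read in the opposite direction. Another PLOD3 transcript starts 62 bp from the centre in A549 and 86 bp from that in HCT116. Binding at this shared start cannot be given to either gene by position. Both peaks held 2 cores.

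LOX, which encodes the founding lysyl oxidase, had 1 weak hypoxia peak, in A549. It held 15 tags, or 3.22 tags per 10 M (1.80 to 5.31), ranked 4346th of 5408 peaks, and lay in an intron 1563 bp past the MANE Select start. Its input fold of 13.4 was just above the 13 required in that line. The nearest hypoxia peak to the LOX start in the other lines was 28.5 kb away in RKO, 139.8 kb in HCT116 and 718.7 kb in H460.

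LOXL2, a lysyl oxidase relative that is secreted by many carcinomas, was bound inside the gene. Its strongest peak, at chr8:23202890-23203050 over the 3 lines, lay in an intron 58.7 kb past the MANE Select start. The level was 39.7 tags per 10 M in A549 (34.2 to 45.9), 8.97 in RKO (6.84 to 11.5) and 7.97 in HCT116 (6.15 to 10.2), and H460 had no peak there. A call needed a fold over input of 14 in H460 and of 6 in RKO, where this peak had 11.25. Presence in RKO and absence in H460 are therefore not like for like. A549 was 4.98 times HCT116, and the intervals of RKO and HCT116 overlapped. The centres lay within 4 bp of each other and fell 1 to 5 bp from a core.

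A second LOXL2 region, in an intron 47.8 kb past the start, had 17.4 tags per 10 M in A549 (13.8 to 21.6) and 3.44 in RKO (2.18 to 5.16), with 1 core. A549 alone had 3 further peaks, of 9.45 in an intron, 3.22 in the untranslated region at the end of the gene and 4.72 past its end. None of these 3 had a core within the called interval. An antisense RNA gene, LOXL2-AS1, starts 9.28 kb from the strongest peak, nearer than the LOXL2 record start. The start of a shorter LOXL2 transcript was nearer still, 4278 to 4282 bp from the centre of that peak.

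LOXL1 and LOXL4, further lysyl oxidase relatives, had no peak in any of the 8 lists. The nearest hypoxia peak to the LOXL1 start lay 45.3 kb away in RKO (2.84 tags per 10 M) and 210.0 kb or more in the other lines. For LOXL4 it lay 50.9 kb away in RKO, 75.2 kb in A549 and 133.6 kb in HCT116 and in H460.

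**Figure D3:**
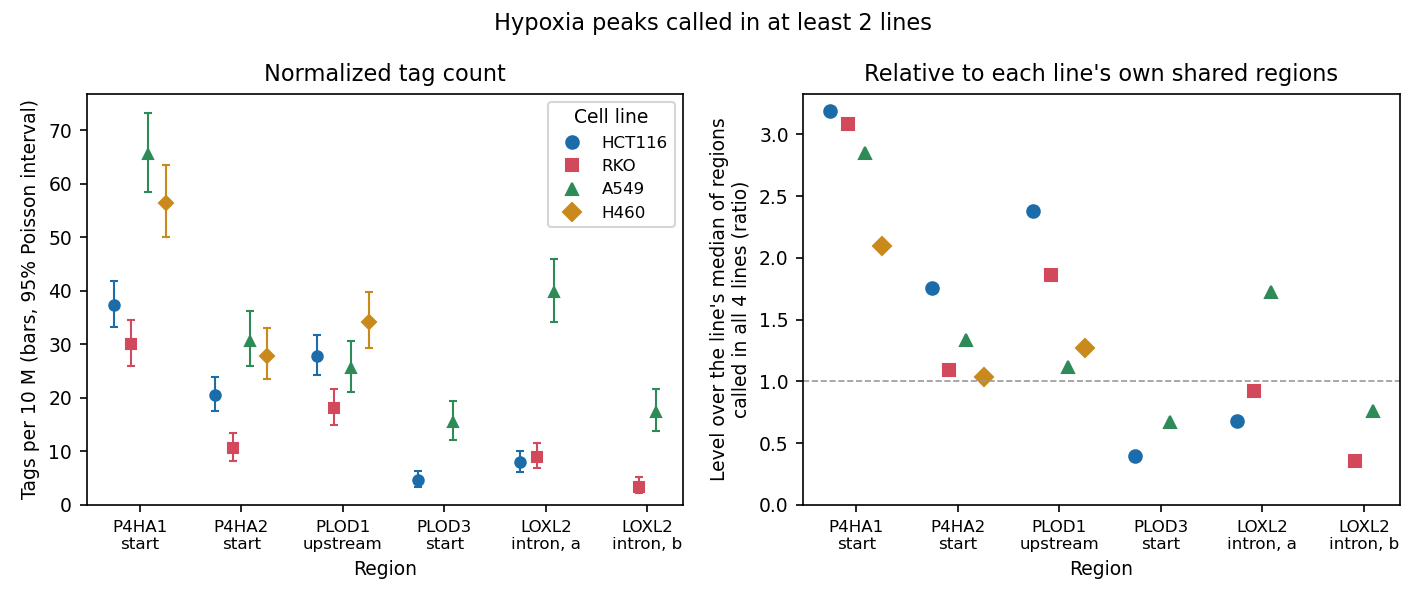
Hypoxia level by cell line at the 6 regions called in at least 2 lines, as tags per 10 M with 95% Poisson intervals (left) and as a ratio to the line's own median over regions called in all 4 lines (right, dashed line at 1). On the left A549 or H460 is highest at each region. On the right HCT116 is highest at P4HA1 (3.19), P4HA2 (1.75) and PLOD1 (2.38).

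The order of the lines depended on the scale. The median level over regions called in all 4 lines differed between the lists, and dividing by it gave P4HA1 ratios of 2.85 in A549 and 2.10 in H460, below 3.19 in HCT116 and 3.09 in RKO. For PLOD1 the ratios were 2.38 in HCT116, 1.86 in RKO, 1.27 in H460 and 1.11 in A549. For P4HA2 they were 1.75 in HCT116, 1.33 in A549, 1.09 in RKO and 1.04 in H460. At P4HA1 and PLOD1 the line that was highest per 10 M tags then lay below RKO, the line that had been lowest. At PLOD3 and at both LOXL2 regions A549 stayed highest on this scale.

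**Figure D4:**
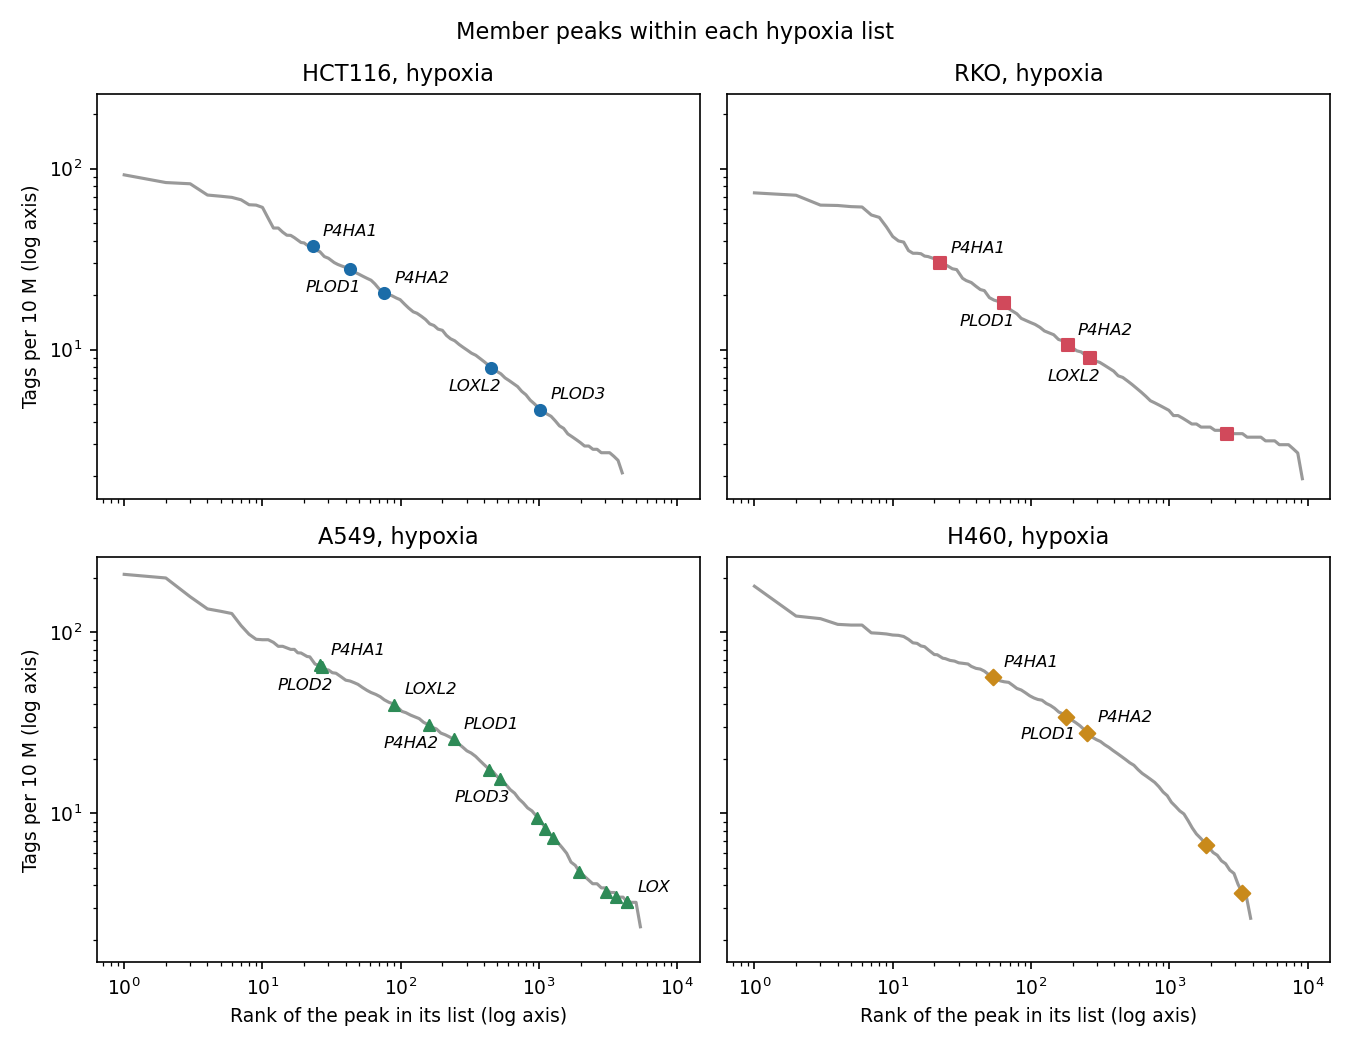
Level against rank for all peaks of each hypoxia list (grey line, both axes log), with the peaks at the collagen hydroxylase and lysyl oxidase genes as symbols and each gene named once, at its strongest peak. P4HA1 is the leftmost symbol in every line, at rank 22 to 53, and PLOD2 stands beside it in A549 at rank 27, while LOX lies near the end of the A549 list.

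Of the 30 hypoxia peaks, 26 had an RCGTG core within the 200 bp at their centre, on either strand. By line these were 5 of 5 in HCT116, RKO and H460 and 11 of 15 in A549, where 65.1%, 30.5%, 76.9% and 52.4% of all peaks of the list had one. In windows of the same length 2000 bp to either side of the peaks the shares were 19.5% to 24.2%, and over 200 bp at all MANE Select starts 43.6%. The 26 peaks came from 13 of the 17 regions, so overlapping peaks of different lines shared sequence and were not independent.

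ACGTG was the more frequent form. It was present in 25 of these 26 peaks, where 62.9% to 73.2% of all hypoxia peaks with a core held at least 1 ACGTG. The exception was the weak H460 peak upstream of the P4HA2 record. All 19 peaks in regions called in at least 2 lines had a core, with a median level of 25.6 tags per 10 M. They came from 3 regions called in 4 lines, 1 called in 3 and 2 called in 2, so the same sequence was counted repeatedly. The 11 peaks called in 1 line had a median of 4.72, and 7 of them had a core. The shares over all peaks called in 1 line or in several are not given, so this describes these peaks only.

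The absence of a normoxia call does not put the normoxia level at 0. A peak at the same place in normoxia would have had to reach the required fold over input, which depends on the input tags there. The level computed here is the larger of that and the lowest level observed in the normoxia list. Input tags were taken over the hypoxia interval, while peak widths were 119 to 191 bp in normoxia and 141 to 160 bp in hypoxia. The fold over the surrounding 10 kb was also required but was not counted. The computed levels are therefore approximate and can lie above or below the level needed. At the PLOD1 peak the computed level came to 2.44 to 9.55 tags per 10 M, against 18.1 to 34.2 in hypoxia. At the P4HA2 start of A549, with 8 input tags, it came to 25 against 30.7 in hypoxia, and at the strongest LOXL2 peak of A549, with 9 input tags, to 28.1 against 39.7. At the PLOD2 start it came to 18.7 against 64.2. Of the 29 hypoxia peaks without a normoxia call, 13 were over 2 times the computed level. At the others the hypoxia level was itself less than 2 times that level.

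Other genes of collagen biosynthesis and cross-linking were counted in the same way, over a list of 21 genes. Of these, 14 had a peak in at least 1 hypoxia list (51.8% of all protein-coding genes), 4 in at least 2, and 1 in all 4 (3.26%). That gene was P4HB, which encodes the disulphide isomerase that forms the other subunit of prolyl 4-hydroxylase. Near its start, 582 to 600 bp upstream, it had 38.6 tags per 10 M in H460, 19.9 in HCT116 and 8.82 in RKO, and A549 had no peak there. Peaks 7.25 to 7.68 kb upstream were called in all 4 lines, at 30.5 in H460, 27.7 in A549, 20 in HCT116 and 7.18 in RKO, beside the start of a long non-coding RNA gene. These were not 1 shared site. Their centres lay 7248 bp (HCT116), 7439 bp (H460), 7664 bp (A549) and 7683 bp (RKO) upstream, and only the A549 and RKO peaks overlapped.

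LOXL3, named after its values were seen, had 1 hypoxia peak, of 5.15 tags per 10 M in A549 (rank 1760), which lay 50 bp from the start of the neighbouring gene AUP1. The other genes with peaks in 2 hypoxia lists were P3H2 (a prolyl 3-hydroxylase), PPIB (a prolyl isomerase of the collagen-folding complex) and TLL1 (a procollagen C-proteinase). Their highest levels were 13.3 tags per 10 M in H460 for P3H2, 3.29 in RKO for PPIB and 7.95 in A549 for TLL1. A normoxia peak was present at 3 of the 21, each in 1 list, where 1.3% to 6.94% of all protein-coding genes had one by list.

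Over all 8 lists the protein-coding gene with the pattern most like that of P4HA1 was EGLN1, which encodes the prolyl hydroxylase that marks HIF1A for degradation in oxygen. The likeness was the Euclidean distance between the log2 levels (plus 1) of the strongest peaks, and it was 0.554 for EGLN1. Its levels in hypoxia were 62.7 tags per 10 M in H460, 46 in A549, 40.4 in HCT116 and 28 in RKO, with 14.3 in A549 in normoxia and no normoxia peak elsewhere. VKORC1 and PRSS53, neighbours on chromosome 16 with the same level in every list, followed at 0.876.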

How the data were processed

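The authors aligned reads to GRCh37 (hg19), and the submitters' processing notes name Bowtie2 2.2.9, SAMtools 1.3.1, Picard 1.129 and HOMER 4.3. Per the file headers, HOMER called peaks on the 2 merged ChIP libraries of each line and condition against the line's input, at a false discovery rate of 0.001, a fold over input of 6 to 14 and a fold of 3 over the surrounding 10 kb. The deposited signal, the Normalized Tag Count, is tags per 10 M. The deposited fold ratios and input tags were used beside it. The authors' p-values were not used.

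Gene records and transcripts came from GENCODE v44 mapped to GRCh37. Unscaled tags were recovered from the level and the library total, and 95% intervals are exact Poisson. Hypoxia peaks were joined into regions at an overlap of 1 bp. Peaks called in both conditions of a line were compared by an exact two-sided binomial test, conditional on the summed tags and with the library totals as expectation, with Benjamini-Hochberg adjustment over that line's shared peaks. The test was checked on simulated tags. Windows of 200 bp at peak centres were searched for RCGTG on both strands. The likeness rule took the member called in most hypoxia lists, with ties settled by the largest summed level in hypoxia. Alternatives were other windows, stricter folds, 1 signal floor, nearest starts only, other scalings and other motif windows. Analyses used Python 3.11.15, scipy 1.17.1 and pysam 0.24.0. The members and gene lists were chosen with earlier results of these data known. All 10 members were named, and other genes were named by fixed rules on calls, distance to a peak and likeness.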

Additional observations from a re-analysis of the deposited data

Results flagged for a closer look

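In groups of 4 cell lines, a value was marked where its gap to the nearest other line over the whole range exceeded Dixon's 95% critical value. Of 7 groups examined, 3 were marked, each with a ratio of 1, and chance marks about 1 group in 20. In each the line that stood apart was A549. It had 15 hypoxia peaks at the collagen hydroxylase and lysyl oxidase genes, where HCT116, RKO and H460 had 5 each. In normoxia it had peaks at 2 of these genes, and 2 such peaks, where the other lines had 0 and 0. These are whole-number counts with ties among the other lines, so the ratio takes its highest value whatever the size of the gap. The rate of 1 in 20 does not hold for such counts. The 2 normoxia marks rest on the same peaks, 1 at each gene. The levels of the P4HA1, P4HA2 and PLOD1 regions were not marked.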

How the results depend on the processing

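Replicates were merged before peak calling, so no value had a replicate error and no replicate could be left out. No paired analysis was possible because the lists hold 1 merged value per line and condition. Weak peaks of 15 to 23 tags had wide counting intervals, and a missing call is no measure of the level. The cause of the changes below was not tested, except where stated.

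Of 162 recomputed values, 123 kept their direction and stayed within 1.5 times or within the counting interval. Some of these could not change. Lists with no peak at these genes stay empty under a narrower window or stricter thresholds, and H460 already required a fold over input of 14. The tally is therefore no measure of robustness. The count of 3 genes called in every hypoxia list was 1 when a peak had to be nearest to the start of its gene's record. That setting drops the P4HA2 peak by construction, since its record starts far upstream. It left 1, 1 and 3 genes with a hypoxia peak in HCT116, RKO and A549, and 1, 1, 5 and 2 hypoxia peaks in HCT116, RKO, A549 and H460. In A549 in normoxia it left 1 gene and 1 peak, as did a local fold of at least 6. With transcript starts instead, an alternative chosen after seeing the data, HCT116 had 3 genes and 3 peaks and H460 had 2 peaks, while 2 genes were called in every hypoxia list, since PLOD1 was dropped. A window of 50 kb gave 10 hypoxia peaks in HCT116, 7 genes and 12 hypoxia peaks in RKO, and 1 gene with 1 normoxia peak in each of HCT116, RKO and H460. A window of 2.5 kb left 3 hypoxia peaks in H460. A fold over input of at least 14 left 2 genes and 2 peaks in RKO. Both settings left 2 genes called in every hypoxia list, the narrower window without PLOD1 and the stricter fold without P4HA2. With a window of 50 kb there were 4 such genes. A local fold of at least 6 left 9 hypoxia peaks in A549. The A549 difference between conditions at P4HA1 kept its direction and its call under both other totals. Leaving out 1 cell line gave 3 or 4 genes called in all remaining hypoxia lists.

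The comparison of lines changed most. Relative to regions called in all 4 lines, the log2 ratio of A549 to RKO was -0.12 at P4HA1 (1.13 per 10 M tags) and 0.29 at P4HA2 (1.53), and that of H460 to RKO was -0.55 at PLOD1 (0.92). On that scale the log2 ratio of A549 to HCT116 was 0.76 at PLOD3 (1.73) and 1.34 at the strongest LOXL2 region (2.32), and that of A549 to RKO was 1.10 at the second LOXL2 region (2.34). By the deposited fold over input these ratios were 4.28 at P4HA1, 0.68 at P4HA2, -0.42 at PLOD1, 0.43 at PLOD3 and -0.57 at the strongest LOXL2 region. Those folds rest on 1 to 9 input tags. At P4HA2 the A549 and RKO peaks did not overlap, so each ratio there sets 2 neighbouring intervals side by side.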
